A study of Mus musculus with 11 samples.

Results

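Ncam1, Ncam2, Kirrel2, Kirrel3, Lsamp, Ntm, Opcml and Negr1 encode adhesion molecules of the immunoglobulin superfamily that neurons carry on their surface. Their transcripts were followed on every array probe set that the platform annotation assigns to exactly 1 of these 8 symbols. This gave 21 of the 45101 probe sets of the array, and they covered 7 of the 8 genes, out of 18193 symbols with a probe set of their own in the annotation, since no probe set was assigned to Kirrel2 alone. The 8 genes were chosen from measured values of these same arrays, in the contrast between knockout and wild type, so their differences in that contrast are given here as a description and no p-value is attached to them.

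RNA had been taken from the whole main olfactory epithelium (MOE), the sheet of sensory neurons, supporting cells and basal cells that lines the nasal cavity, on postnatal day 0. The Bcl11b KO group (Bcl11b-/-) held 6 mice homozygous for a conventional, germline knockout of Bcl11b, a zinc finger transcription factor, and replicates 3 and 6 were female. The wild type group held 5 male mice. All mice carried the strain label BALB/c and were born to heterozygous parents, and each array held the RNA of 1 epithelium. Because the knockout is present in every cell of the body, the arrays cannot separate its action in olfactory sensory neurons (OSNs) from its action elsewhere. On the brightest Bcl11b probe set, KO arrays read 560.5 to 1249.8 and wild type arrays 2694.3 to 4122.7, a log2 difference of -1.88 ± 0.17 (SE; adjusted p = 1.2e-05, limma), and all 4 tested Bcl11b probe sets separated the genotypes.

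NCAM1 mediates homophilic adhesion between neurons, and the polysialic acid chains it carries in young neurons weaken that adhesion and favour axon growth. NCAM2, also called OCAM, is known in the mouse epithelium as a molecule of OSNs outside the dorsal zone. KIRREL2 and KIRREL3 bind their own kind, and in mice they are expressed in complementary, activity-dependent subsets of OSNs and help to sort axons of like neurons into common glomeruli of the olfactory bulb. LSAMP, NTM (neurotrimin), OPCML and NEGR1 form the IgLON family, small proteins that are anchored to the membrane by a glycolipid and that adhere to themselves and to each other on neurons and their axons.

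Signals are on a linear scale, set on each array so that GAPDH reads 10000. Array medians lay between 62 and 86.5 in KO and between 56.6 and 85.7 in wild type. Differences are KO minus wild type on the scale of log2(signal + 16), with the SE from a limma fit to all 33662 probe sets whose mean signal reached 20. A probe set is said to be called when its Benjamini-Hochberg adjusted p over all of them was under 0.05. An unadjusted p under 0.05 was reached by 2330 of the 33662, the background for the list counts at that threshold below. Of the 21 member probe sets, 19 passed the signal minimum. Ncam1 probe set 7 (1.6 to 5 in KO, 1.3 to 2.8 in wild type) and Kirrel3 probe set 3 (1.8 to 28.3 in KO, 1.9 to 31.7 in wild type) did not. Probe sets of a gene are numbered by mean signal, the brightest first, and levels were not compared between probe sets, since each binds its target with its own strength.

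Ncam2 stood lower in KO on 1 probe set and Lsamp stood higher on 1 probe set, and the other 17 of the 19 tested were not called. Over all tested probe sets, 0.211% were called lower and 0.244% called higher. Ncam2 probe set 1 was also the only member probe set on which every KO array lay below every wild type array, which 0.573% of all tested probe sets did, and Lsamp probe set 1 the only one on which every KO array lay above, against 0.716% of all. Since the genes were chosen from this contrast, nothing is read from these shares. The 19 log2 differences ran from -1.21 to 1.66 with a median of 0.17, beside a median of 0.047 over all tested probe sets. They were positive for 13 member probe sets and negative for 6, and 60.4% of all tested probe sets had a positive difference.

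**Figure D1:**
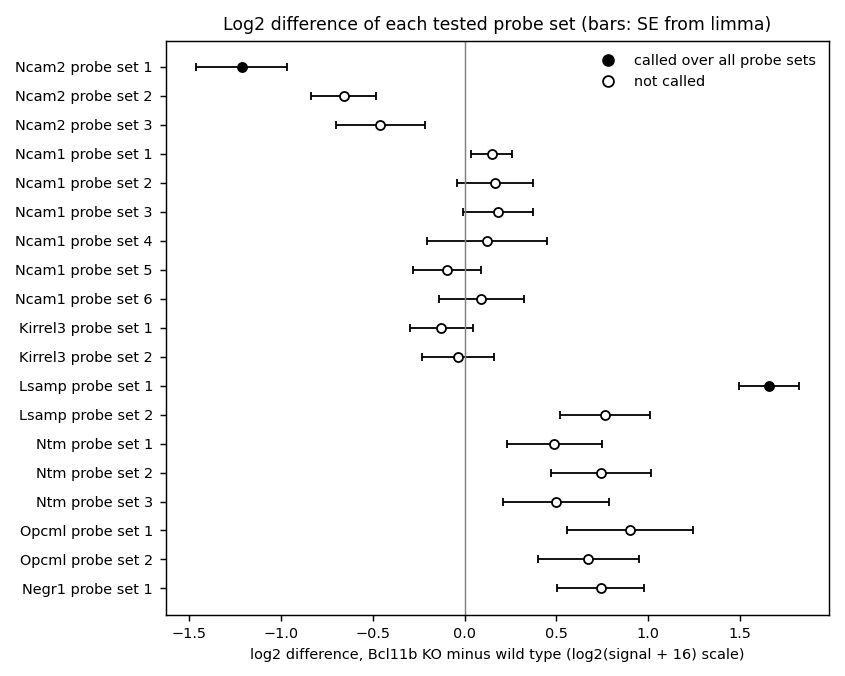
Log2 difference, KO minus wild type, of each of the 19 tested probe sets, with bars of 1 SE from limma on 6 KO and 5 wild type arrays; filled points mark the 2 called probe sets. The 3 Ncam2 probe sets lie left of 0, those of Ncam1 and Kirrel3 near 0, and all 8 IgLON probe sets right of it, between 0.49 and 1.66.

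Ncam2 was lower in KO. On probe set 1, KO arrays read 82 at the lowest, 110.2 at the median and 139 at the highest, and the wild type arrays read 339, 562.2, 229.3, 170.2 and 197.5. The groups did not overlap, and the KO mean of 110.6 ± 25.1 was 36.9% of the wild type mean of 300 ± 160 (SD, n = 6 and 5). The log2 difference was -1.21 ± 0.25. The wild type values were widely spread, and replicate 2 alone read over 3 times the lowest of them. Because the tissue was measured in bulk, fewer cells that express a gene and less of its RNA per cell cannot be told apart.

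The other Ncam2 probe sets lay in the same direction without being called. On probe set 2, KO arrays read 122.7 at the lowest, 133.6 at the median and 214.7 at the highest, against 223.8, 281.3, 301.2, 185.1 and 209.3 in wild type, with a log2 difference of -0.66 ± 0.17. Here 5 of 6 KO arrays lay below every wild type array, and KO replicate 1, at 214.7, lay within the wild type range. Probe set 3 was dim, at 3.8 to 40.4 in KO and 24.1 to 36.2 in wild type, and its log2 difference was -0.46 ± 0.24. It too placed 5 of 6 KO arrays below every wild type array. The array that broke this pattern was not the same in both, for it was KO replicate 4 on probe set 3.

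The call of Ncam2 probe set 1 lay near its threshold. The log2 difference was negative under each of 27 alternative settings, between -1.61 and -0.96, but was called in only 13 of them. It ended when wild type replicate 1, 2 or 3 or KO replicate 1, 2, 3 or 5 was left out, with log2 differences between -1.27 and -0.96 in these fits, and with males only (-1.21). It also ended with all 11 arrays in place, at a log2 difference of -1.21, with no signal minimum, without the intensity trend or with sex as a covariate.

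The start region of Ncam2 is shown because Ncam2 is the member called lower. RefSeq (GRCm38.p6) places it at chr16:81200447-81200746 on the + strand, 250 bases before to 50 after the annotated start.
Ncam2: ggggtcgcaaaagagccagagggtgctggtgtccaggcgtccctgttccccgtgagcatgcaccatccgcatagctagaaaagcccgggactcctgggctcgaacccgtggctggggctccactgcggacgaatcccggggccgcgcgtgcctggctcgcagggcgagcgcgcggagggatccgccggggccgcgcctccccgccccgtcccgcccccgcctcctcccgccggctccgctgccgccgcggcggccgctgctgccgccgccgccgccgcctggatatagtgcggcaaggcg
Its GC content was 75.7%, higher than that of 96.7% of 32851 promoters of the same length, whose median was 52.7%. Motifs were searched on both strands, namely CCCNNGGG, the core bound by the Ebf factors of OSNs (in 13.7% of all promoters), TAATTA, a core bound by LIM homeodomain factors (5.29%), the E-box CANNTG (72.3%) and TGACCA, a motif known for the related factor Bcl11a (13.6%). None of these letters occurred in the Ncam2 window. The paper of this study describes a GC-rich consensus bound by Bcl11b itself. That sequence was not searched for, so nothing is read here about such sites.

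Markers of mature OSNs were lower in KO alongside Ncam2. The list mean was 9.37 in KO and 10.02 in wild type on the log2 scale, with summed signals of 8828 to 12071 in KO and 14650 to 19023 in wild type, and 5 of its 10 measured genes were called lower. The steepest was Stoml3, a membrane protein of the sensory cilia, at -1.21. The deviations of the arrays from their group means went with those of this marker list at r = 0.39 for Ncam2 probe set 1, 0.75 for probe set 2 and -0.19 for probe set 3 (11 arrays, a description). For probe set 1, the called one, other marker lists gave higher values. The highest were 0.84 for the vomeronasal list (Trpc2, Gnao1, Gnai2 and Meis2), 0.69 for immature OSNs, 0.63 for ensheathing glia and 0.61 for mesenchyme. The skeletal muscle list gave 0.52, olfactory bulb neurons 0.47, neuronal precursors 0.45 and sustentacular cells 0.40. Only the erythroid list (0.29) and the horizontal basal cell list (0.08) gave lower values. These are values of lists, and which cells carried them was not tested. The part of the marker change in the Ncam2 values was not tested. Genes of the epithelial zones showed no call among 4 of 5 measured, by limma, with 0 at an unadjusted p under 0.05. Nqo1, an oxidoreductase of the dorsal zone, differed by 0.10 ± 0.17 (adjusted p = 0.985) and Nrp2, a semaphorin receptor found in ventral OSNs, by 0.14 ± 0.17 (adjusted p = 0.974).

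**Figure D2:**
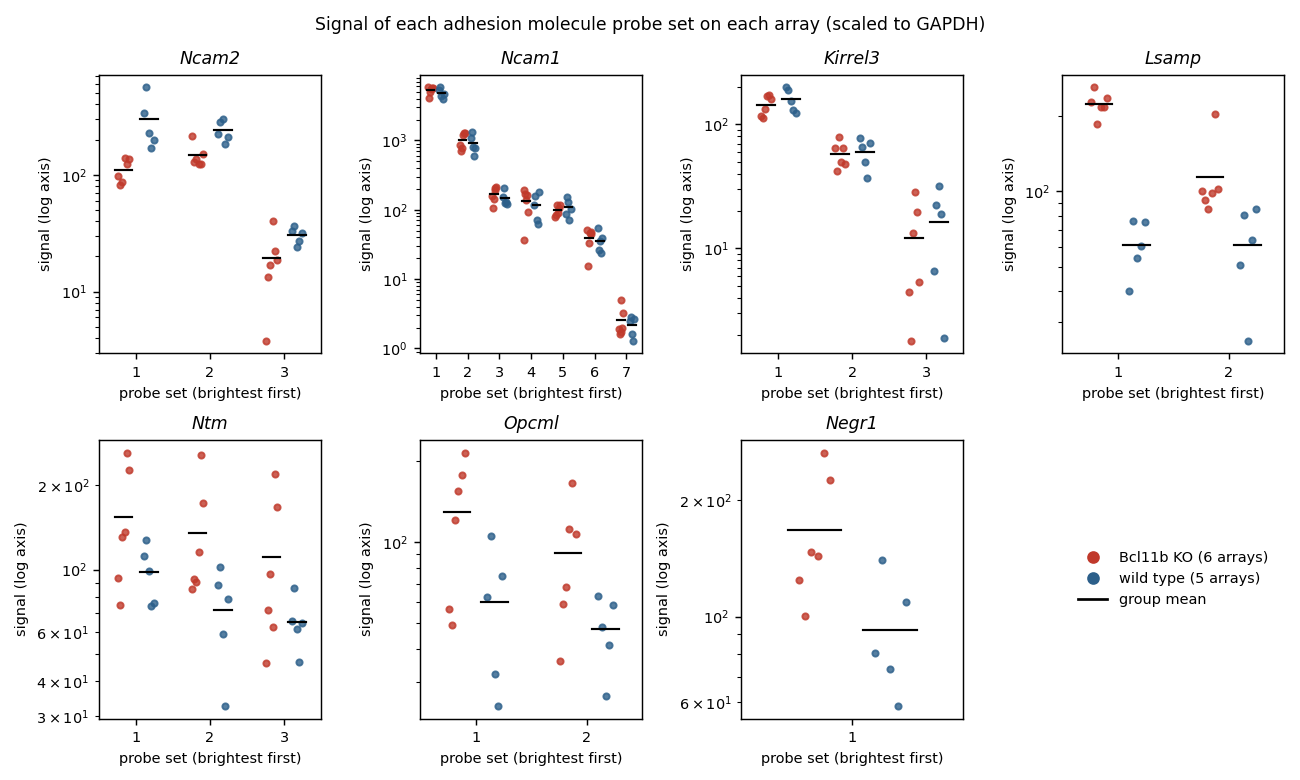
Signal (log axis) of each of the 21 probe sets on each array, 1 panel per gene with its own axis, KO in red at the left and wild type in blue at the right of each probe set, and bars at the group means. The genotypes separate on Ncam2 probe set 1 (KO at most 139, wild type at least 170.2) and on Lsamp probe set 1 (KO at least 186.4, wild type at most 76).

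Ncam1 showed no call on any of its 6 tested probe sets, and the genotypes overlapped on all of them. Probe set 1 read 4139.9 at the lowest, 5600.5 at the median and 5843.5 at the highest in KO, against 5297.9, 5818, 4370.7, 3970.1 and 4603.3 in wild type. Its log2 difference was 0.15 ± 0.11, with a 95% interval of -0.09 to 0.38. The remaining 5 ranged between -0.10 and 0.18, with SE of 0.19 to 0.33. From array to array, probe set 2 went with a technical measure. The arrays whose spiked poly-A control transcripts read high were KO replicates 4, 5 and 6, at 1213.9 to 1288.9, and wild type replicates 1 and 2, at 1097.7 and 1300. The arrays on which these controls read low gave 702.6 to 864 in KO and 599.9 to 798.4 in wild type, with no overlap between both sets of arrays. The part of the poly-A controls in these values was not tested. The division was not particular to this probe set. The median signal of the whole array divided likewise, at 75.6 to 86.5 where the controls read high and 56.6 to 75.2 where they read low. How many of all probe sets divided in this way was not counted. The poly-A controls are bacterial RNAs added before the RNA is amplified, and no label ties them to a preparation day. The same division of arrays was seen within each genotype on Ncam2 probe set 1 (122.8 to 139 beside 82 to 97.5 in KO, 339 and 562.2 beside 170.2 to 229.3 in wild type) and on Kirrel3 probe set 1 (159.1 to 172.3 beside 113.4 to 134 in KO, 189.5 and 199.8 beside 122.9 to 154.8 in wild type). The log2 difference of Ncam2 probe set 1 was -1.61 within the arrays of higher and -1.03 within those of lower poly-A signal.

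No measured gene of a list of partners that act on or with NCAM1 was called. Of 16 listed enzymes, proteases and signalling partners, 14 were measured, 0 were called by limma, and 1 had an unadjusted p under 0.05. That was St8sia4, an enzyme that adds polysialic acid to NCAM1, at 0.39 ± 0.18 (adjusted p = 0.676). The next was Sptbn1, the spectrin that links NCAM1 to the membrane skeleton, at 0.18 ± 0.11 (adjusted p = 0.888). The list median was 0.11, beside 0.048 over 15133 genes represented by their brightest probe set, of which 0.324% were called lower and 0.35% higher.

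Kirrel3 was likewise not called. Probe set 1 read 113.4 at the lowest, 146.6 at the median and 172.3 at the highest in KO, against 199.8, 189.5, 154.8, 131.1 and 122.9 in wild type, and the log2 difference was -0.13 ± 0.17 (95% interval -0.49 to 0.23). Probe set 2 spanned 41.9 to 79.3 in KO and 37.1 to 77.2 in wild type, with a log2 difference of -0.04 ± 0.20. The sign of the difference on probe set 2 turned under 6 of 26 alternatives, so no direction is given for Kirrel3. Kirrel2 lies beside Nphs1, whose product nephrin is a binding partner of the KIRREL proteins in the kidney, and Nphs1 differed by 0.07 ± 0.19.

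Other molecules that sort OSN axons were read beside Kirrel3. All 20 listed genes were measured, 0 were called by limma, and the list median was -0.14. An unadjusted p under 0.05 was reached by 6 of them (2 higher and 4 lower), beside 2330 of all 33662 tested probe sets. The smallest p-values belonged to Pcdh17, a protocadherin, at -0.60 ± 0.19 (adjusted p = 0.302) and Efna3, an ephrin ligand of Eph receptors, at -0.47 ± 0.15 (adjusted p = 0.309). Of 42 symbols of other immunoglobulin-family adhesion genes, 35 were measured, 0 were called by limma, and 4 had an unadjusted p under 0.05 (3 higher and 1 lower). Igsf8, a membrane protein that associates with tetraspanins, differed by -0.39 ± 0.12 (adjusted p = 0.255) and Icam5, a telencephalic neuron adhesion molecule, by 0.92 ± 0.30 (adjusted p = 0.341). Icam5 was dim, at a mean of 44.35 in KO and 16.7 in wild type, the latter under the signal minimum of 20. The list median was 0.04.

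Lsamp was higher in KO. On probe set 1, KO arrays read 186.4 at the lowest, 222.9 at the median and 261.2 at the highest, and the wild type arrays read 39.9, 76, 54.1, 60.3 and 75.4. Every KO array lay above every wild type array, with a wide gap between the groups. The KO mean of 224 ± 24.7 was 3.67 times the wild type mean of 61.1 ± 15.2 (SD, n = 6 and 5), and the log2 difference was 1.66 ± 0.16. This was called under each of 27 alternative settings, with log2 differences between 1.21 and 1.89, and it was 1.74 within the arrays of higher and 1.60 within those of lower poly-A signal and 1.70 with males only.

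Lsamp probe set 2 lay in the same direction but was not called. It read 85.1 at the lowest, 99.6 at the median and 204 at the highest in KO, against 50.8, 80.6, 25.3, 64 and 85.2 in wild type, and its log2 difference was 0.76 ± 0.25. Of the KO arrays, 5 of 6 exceeded every wild type array and the sixth, at 85.1, fell just short of the highest of them. Without KO replicate 5, the array at 204, the difference was 0.60 ± 0.23. The 2 probe sets deviated from their group means together only loosely (r = 0.40 over 11 arrays).

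RefSeq gives Lsamp 2 start regions, shown because Lsamp is the member called higher, both on the + strand of GRCm38.p6, start 1 at chr16:39984114-39984413 and start 2 at chr16:41532576-41532875. The capitals mark E-box matches.
Lsamp start 1: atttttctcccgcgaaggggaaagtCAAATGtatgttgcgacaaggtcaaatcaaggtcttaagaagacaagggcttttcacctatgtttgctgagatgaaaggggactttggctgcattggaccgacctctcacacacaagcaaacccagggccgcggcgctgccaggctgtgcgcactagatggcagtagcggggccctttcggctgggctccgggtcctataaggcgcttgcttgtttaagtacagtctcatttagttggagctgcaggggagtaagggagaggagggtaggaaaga
Lsamp start 2: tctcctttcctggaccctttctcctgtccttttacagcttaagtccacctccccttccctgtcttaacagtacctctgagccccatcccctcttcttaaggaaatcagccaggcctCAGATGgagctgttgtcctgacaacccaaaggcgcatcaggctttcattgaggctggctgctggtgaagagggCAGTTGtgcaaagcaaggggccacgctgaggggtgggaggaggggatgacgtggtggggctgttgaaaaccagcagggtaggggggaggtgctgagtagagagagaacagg
Start 1 held 1 E-box, CAAATG, and start 2 held 2, CAGATG and CAGTTG, which did not overlap, and the 3 other motifs were not in either window. GC content was 53.0% and 56.3%. The probe sets were not placed against the 2 starts, since no probe positions were used here. Of the other members, Kirrel2, Ntm, Opcml and Negr1 also had start regions in the table, and Ncam1 and Kirrel3 are named only. TGACCA occurred in 1 of the 8 member windows, at the second Ntm start, and CCCNNGGG in those of Kirrel2 and Negr1. The gene next to Lsamp in the annotation is Igsf11, another immunoglobulin-family adhesion gene, which read 45.4 ± 21.0 in KO and 50.8 ± 10.4 in wild type (SD), a log2 difference of -0.19 ± 0.25 that was not called.

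Ntm, Opcml and Negr1 had positive differences on all 6 of their probe sets without a call. Negr1 read 100.3 at the lowest, 144.9 at the median and 265.5 at the highest in KO, against 80.3, 140, 73.4, 58.8 and 109 in wild type, a log2 difference of 0.74 ± 0.24. Opcml probe set 1 read 49.2, 137.8 and 215.9 in KO in the same order, against 62.6, 105, 32.2, 24.5 and 74.8 in wild type, a difference of 0.90 ± 0.34. In each of these, 4 of 6 KO arrays exceeded every wild type array and the other KO arrays lay within the wild type range. Opcml probe set 2 read 35.9 to 165.5 in KO and 26.7 to 62.8 in wild type, a difference of 0.67 ± 0.27.

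Ntm, whose gene neighbours Opcml, had 3 tested probe sets. Probe set 2 read 85.1 at the lowest, 104.2 at the median and 256 at the highest in KO, against 88.2, 101.8, 59.2, 32.7 and 78.5 in wild type, and its log2 difference was 0.74 ± 0.27. Probe set 1, of a type that may also bind related transcripts, differed by 0.49 ± 0.26, and probe set 3 by 0.50 ± 0.29. On all 3 the highest arrays were KO replicates 5 and 6, at 166.8 to 261.6, and the other KO arrays read 46.4 to 136.2, beside 32.7 to 127.3 in wild type.

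These 3 genes varied together from array to array. The correlations of their deviations from the group means, between probe sets of different genes, lay between 0.68 and 0.90 (median 0.81, 11 pairs of probe sets over the same 11 arrays), beside a median of 0.42 over all 147 pairs of member probe sets of different genes. Probe sets of the same gene reached a median of 0.50 over 24 pairs, from 0.83 to 0.87 within Ntm and 0.77 for Opcml, but only from -0.60 to 0.45 within Ncam2. The Lsamp probe sets differed in this respect, since the pairs of probe set 1 with Ntm, Opcml and Negr1 lay between -0.21 and 0.22 and those of probe set 2 between 0.37 and 0.64. These correlations are descriptions, since all points share the same arrays and amplification.

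Markers of cells that adjoin or sheathe the epithelium were read beside the IgLON genes. The mean of 7 measured markers of olfactory ensheathing glia, the cells that wrap OSN axons, was 9.35 in KO and 8.91 in wild type on the log2 scale, with 0 of 7 called and 3 at an unadjusted p under 0.05. Their summed signal ranged from 6102 to 15075 in KO and from 5672 to 9823 in wild type. The mean of 8 measured markers of olfactory bulb neurons was 7.19 in KO and 6.89 in wild type. Of these markers, 0 of 8 were called and 1 had an unadjusted p under 0.05. Their summed signal ranged from 1654 to 4723 in KO and from 1445 to 2298 in wild type. On every wild type array Slc17a6 was the largest part of that sum, at 762.5 to 1123.1. Whether Slc17a6 marks bulb tissue here was not tested. KO replicate 5 carried the highest bulb marker mean, 8.37. On that array Gad1, the enzyme that makes GABA, read 829.6, against 8.7 to 223.7 on the other KO arrays and 9.1 to 114.5 in wild type. Eomes, a factor of bulb projection neurons, read 520.6, against 43.2 to 111.7 on the other KO arrays and 76.8 to 136 in wild type. Tbr1, Gad2, Reln and Slc32a1 were also highest on that array. The remaining bulb markers were not. Slc17a6 read 1022.3 there, below KO replicate 1 (1094.8) and wild type replicates 2 and 3 (1067.4 and 1123.1). Slc17a7 read 30.3, below KO replicate 6 (38.7) and wild type replicate 1 (37).

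Across the 11 arrays, deviations of the Ntm, Opcml and Negr1 probe sets went with those of the bulb markers at r between 0.73 and 0.95 and with those of the glial markers at r between 0.66 and 0.94. Lsamp probe set 1 gave 0.16 with the bulb markers and -0.11 with the glial markers, and Lsamp probe set 2 gave 0.68 and 0.37. Such values were not particular to the IgLON genes. Ncam1 probe sets 1 to 3 gave 0.72, 0.83 and 0.85 with the glial markers, Ncam1 probe set 2 gave 0.72 with the bulb markers, and Kirrel3 probe set 1 gave 0.74 with the glial markers. The part of these cells in the IgLON differences was not tested. Without KO replicate 5, the log2 differences were 0.32, 0.55 and 0.29 for Ntm probe sets 1 to 3, 0.78 and 0.50 for Opcml and 0.60 for Negr1, and that of Lsamp probe set 1 was 1.66. Within the arrays of lower poly-A signal, which exclude KO replicates 4 to 6, the differences for Ntm were 0.20, 0.58 and 0.22. Those for Opcml were 0.62 and 0.28, and that for Negr1 was 0.55. Within the arrays of higher poly-A signal, which hold KO replicates 4 to 6, all of these differences were larger than over all arrays. They were 0.68, 0.77 and 0.72 for Ntm, 1.02 and 0.999 for Opcml and 0.85 for Negr1.

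Some markers of other cell types were called higher in KO beside Lsamp. Of the measured genes, 2 of 5 neuronal precursor, 2 of 4 erythroid and 1 of 5 skeletal muscle markers were called higher. Among all genes represented by their brightest probe set, 0.35% were. In the neuronal precursor list the called genes were Neurog1, at 421.4 to 1051.8 in KO and 304.5 to 396.7 in wild type (log2 difference 0.91 ± 0.19), and Neurod1, at 1838.9 to 3161.2 in KO and 1353.7 to 1615.4 in wild type (0.66 ± 0.13), both basic helix-loop-helix factors of OSN precursors. In the erythroid list they were the embryonic globins Hbb-y, at 306.4 to 678.4 in KO and 56.7 to 117.4 in wild type (2.19 ± 0.21), and Hbb-bh1, at 64.4 to 99.6 in KO and 2.2 to 51.9 in wild type. In the skeletal muscle list it was Ckm, the muscle creatine kinase, at 55.9 to 98.9 in KO and 8.4 to 56.7 in wild type (1.53 ± 0.26). The first 4 of these separated the genotypes as Lsamp probe set 1 did, and Ckm did not. Neurog1, Neurod1 and Ckm were each called on 1 of their 2 tested probe sets. The erythroid genes Alas2 (0.17) and Slc4a1 (0.34) were not called. Deviations of Lsamp probe set 1 went with those of the precursor list at r = 0.23, the erythroid list at -0.02, the muscle list at 0.54 and the sustentacular list at 0.59, and the part of these cells in the Lsamp difference was not tested.

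**Figure D3:**
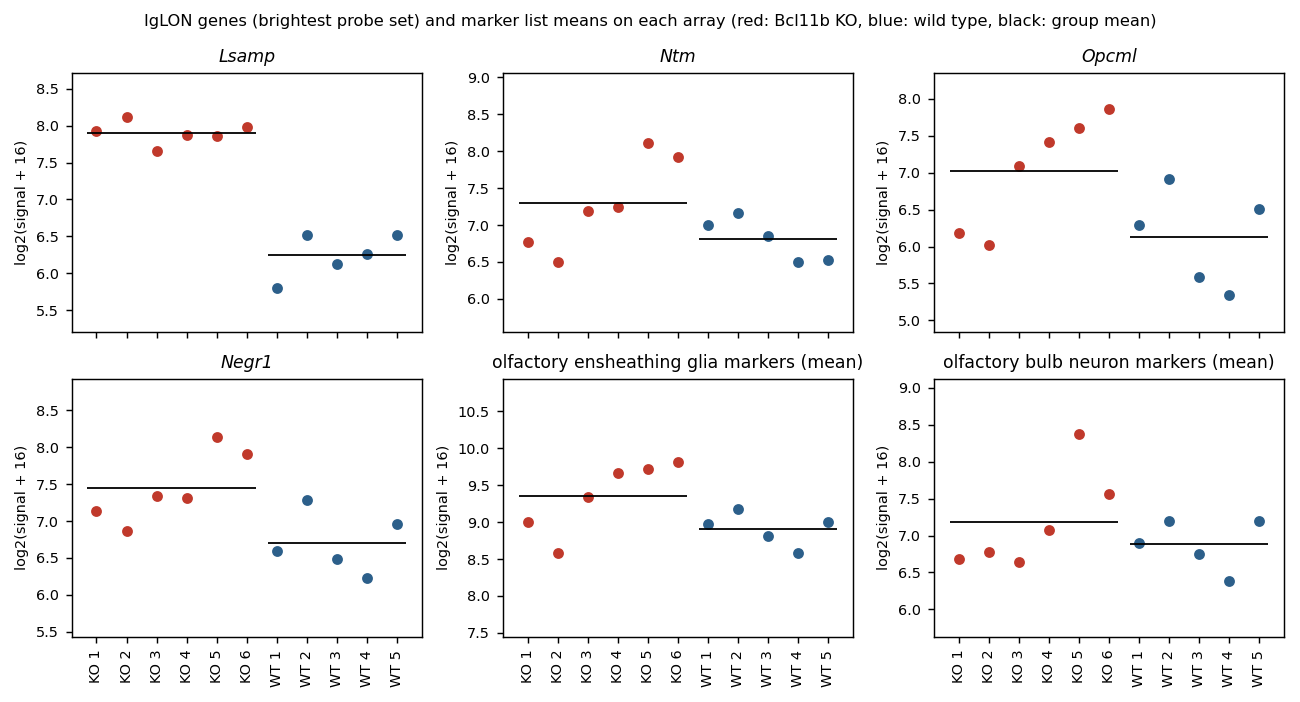
Level on the log2(signal + 16) scale of the brightest probe set of each IgLON gene and of the mean of 2 marker lists on each array, KO arrays (red) left of wild type arrays (blue, WT), with black lines at the group means; every panel spans the same number of log2 units. KO replicates 5 and 6 are the highest for Ntm, Opcml and Negr1 and for the bulb markers, while the 6 KO arrays lie close together for Lsamp.

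Among genes with a mean signal of at least 100, those whose deviations from the group means were most like a member's were found over the same 11 arrays. Lsamp had the loosest neighbours, Zfp579 (r = 0.88), Clec14a (0.87) and Pigyl (0.85). For Ntm they were Zfp385b (0.92), Zswim8 (0.91) and Dhx8 (0.91), and for Negr1 they were Zic1 (0.94), a transcription factor of bulb interneurons, Celf2 (0.94) and Pantr1 (0.94). Ncam2 was most like Mex3b (0.95), BB283400 (0.94) and Kdm6b (0.94), Ncam1 most like Fzd7 (0.97), Cyp26b1 (0.95) and Sdk2 (0.95), and Kirrel3 most like Zfp219 (0.97), Brd2 (0.95) and Zfp335 (0.95). None of these 18 genes was called between the genotypes. They are the highest of 11456 genes, a search that by itself favours high values.

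**Figure D4:**
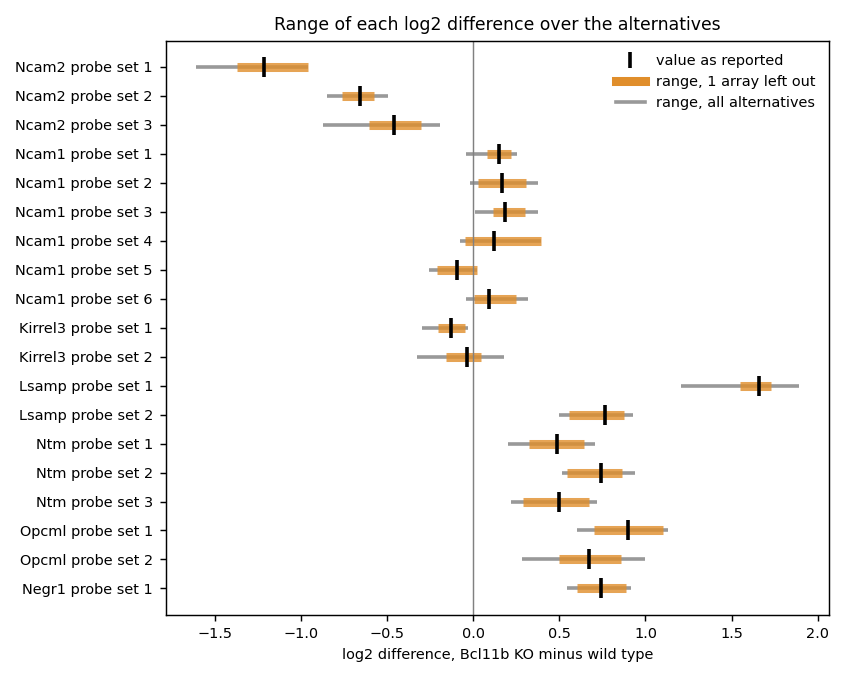
Range of the log2 difference, KO minus wild type, of each tested probe set over the alternative settings (grey), over the fits that leave out 1 array (orange), and the value as reported (black mark). Lsamp probe set 1 stays between 1.21 and 1.89 and Ncam2 probe set 1 between -1.61 and -0.96, while the ranges of 5 Ncam1 probe sets and of Kirrel3 probe set 2 include 0.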

How the data were processed

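Affymetrix mouse expression arrays were read for 6 Bcl11b KO and 5 wild type epithelia. What the authors deposited are linear intensities, 1 for each probe set on each array, made from cRNA amplified in 2 rounds and scaled linearly to GAPDH (software GCOS, according to the submitters' processing notes; its version is not given in the sources used here). A GAPDH difference would therefore shift every value. Depth does not apply to arrays, and the number of arrays limits the precision. Control probe sets (64) were left out. Values were taken as log2(signal + 16), which understates changes of dim probe sets, and compared in limma 3.58.1 (R 4.3.3; lmFit, eBayes with trend, no covariate), after the script was tested on simulated data. Of the probe sets, 34958 had 1 gene symbol, 932 several and 9211 none. A gene in a list was represented by its brightest tested probe set. Members and gene lists were chosen with earlier results of these data known. The named genes were all members and the 3 genes most like each member of mean signal 100 or more. In each list other than the marker lists, the 2 genes of smallest p were named, since fewer than 2 were called. The marker of largest change was given for the mature OSN, erythroid and skeletal muscle lists. It was not singled out in the other marker lists. Neighbour genes of members, called markers other than the steepest of a list, and single markers on KO replicate 5, were named after their values were seen. Of 55 pairs of arrays, none shared more than 0.411% identical values. The samples are separate mice, but litter and preparation day are not in the labels. Alternatives were other scalings, a pseudocount of 1 or 64, a signal minimum of 100 or none, no trend, array weights, sex, the replicate number as a block, the poly-A control split, leaving out KO replicates 2 and 3, whose 3'/5' ratio of GAPDH was highest, and leaving out each array.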

Additional observations from a re-analysis of the deposited data

Results flagged for a closer look

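In 42 groups of arrays (21 probe sets, 2 genotypes each), 2 held an array that lay far from the others of its group by Dixon's test, and chance flags about 1 in 20 groups. On Ncam2 probe set 2, KO replicate 1 read 214.7 and the other KO arrays 122.7 to 150.7. On Lsamp probe set 2, KO replicate 5 read 204 and the other KO arrays 85.1 to 102.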

How the results depend on the processing

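Over 27 alternatives, Lsamp probe set 1 was called higher in 27 and Ncam2 probe set 1 called lower in 13. The count of members called lower, 1 as reported, was 0 with no filter, without the trend, with males only, with sex as a covariate, within the arrays of lower poly-A controls and without both KO arrays of highest GAPDH ratio, and 2 when scaled on spiked hybridization controls, where Ncam2 probe set 2 was added. Leaving out 1 array gave 0 to 1. Over all probe sets, 71 were called lower and 82 higher. Leaving out 1 array gave 36 to 85 lower and 49 to 127 higher. The counts lower and higher were 173 and 120 by quantile normalization (41.0% higher), 261 and 58 on the spiked controls (18.2% higher, with the median of all probe sets at -0.12 in place of 0.047), 120 and 225 with array weights, 44 and 76 with sex as a covariate, 107 and 119 with the poly-A group as a covariate, 12 and 19 within the arrays of higher and 10 and 29 within those of lower poly-A controls, and 80 and 202 without both KO arrays of highest GAPDH ratio. The causes were not tested. Among the other adhesion genes 1 was called lower, Igsf8, by quantile normalization and on the spiked controls. Among axon sorting genes, 1 was called lower, Pcdh17, by quantile normalization and with the poly-A covariate, and 2 were, Pcdh17 and Efna3, on the spiked controls. With the replicate number as a block, 0 members were called lower, and 30 probe sets lower and 62 higher over all. Same-numbered arrays did not deviate together (r from -0.28 to 0.0085, 0 of 5 pairs best with their own number). With so few pairs this cannot exclude a shared litter or preparation, which the labels do not give. Lsamp probe set 1 kept its call under that block.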
